A study of Mus musculus with 8 samples.

Results

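Red blood cell and hemoglobin genes were read in whole brainstem as a measure of how much blood RNA each sample held. Their 8 genes were taken by symbol: the globins Hba-a1, Hba-a2, Hbb-b1, Hbb-b2 and Hbb-bt, the heme enzyme Alas2, the anion exchanger Slc4a1 and the hemoglobin chaperone Ahsp. Of these, 5 had a probe of that symbol on the array, 1 probe each among 25697, and 4 of the 5 probes passed the detection filter (detection p under 0.05 on at least 3 of 8 arrays), as did 15225 probes in all. Hba-a2, Hbb-b1 and Ahsp had no probe of that symbol and are not analysed here.

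Brainstem total RNA of 8 mice (strain label C57/BL6J) was hybridised to Illumina MouseRef-8 v2 beadchips, each mouse on its own array of a single beadchip. The 4 Vglut2:Ndufs4cKO mice (cKO) carried Slc17a6-Cre with 1 deleted and 1 floxed allele of Ndufs4, a subunit of mitochondrial complex I, and were taken at a late stage of disease, after postnatal day 68. The 4 Vglut2:Ndufs4cCT mice (cCT) were control littermates that also carried Slc17a6-Cre, with 1 floxed and 1 intact allele. Cre acts only in cells that express or once expressed Slc17a6 (Vglut2), the vesicular transporter of glutamatergic neurons, whereas the deleted allele of cKO mice is present in every cell, red cell precursors included. The cCT arrays took the first 4 positions of the beadchip and the cKO arrays the last 4, so position and genotype cannot be told apart, and the sources used here do not say whether blood was flushed from the brains before dissection.

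Hemoglobin is built from alpha and beta globin chains, each holding a heme group that binds oxygen. Red blood cell precursors make globins and heme in the bone marrow; the mature cell has lost its nucleus, but young red cells, the reticulocytes, still carry globin mRNA into the circulation, so globin transcripts in a tissue sample commonly come from the blood in its vessels. Globin transcripts have also been found in some neurons, glia and endothelial cells. In bulk tissue, fewer cells of a type and less RNA per cell cannot be told apart.

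The promoters of 4 of the 8 genes are shown because the globin probes varied together across the mice and were less closely correlated with Alas2. Each line gives the 120 bases before the annotated start in RefSeq GRCm38.p6, 5′ to 3′ on the gene's strand, for Hba-a1 (chr11:32283552-32283671, plus strand), Hba-a2 (chr11:32296372-32296491, plus strand), Hbb-bt (chr7:103813924-103814043, minus strand) and Alas2 (chrX:150547297-150547416, plus strand). Capitals mark 4 motifs searched on both strands. They are the promoter motif CCAAT, then CACCC, which KLF1-type factors bind, then AGATAA, which GATA factors bind, and the TATA box TATAAA.
Hba-a1: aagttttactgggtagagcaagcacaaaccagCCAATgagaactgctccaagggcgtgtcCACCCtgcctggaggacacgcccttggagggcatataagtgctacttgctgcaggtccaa
Hba-a2: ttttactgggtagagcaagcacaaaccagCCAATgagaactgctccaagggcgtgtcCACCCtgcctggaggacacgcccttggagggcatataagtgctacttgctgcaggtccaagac
Hbb-bt: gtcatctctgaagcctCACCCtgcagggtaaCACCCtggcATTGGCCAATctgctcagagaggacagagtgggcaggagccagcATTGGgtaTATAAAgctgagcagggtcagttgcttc
Alas2: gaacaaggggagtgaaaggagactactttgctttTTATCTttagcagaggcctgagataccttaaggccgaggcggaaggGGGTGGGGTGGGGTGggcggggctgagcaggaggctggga
The windows of Hba-a1 and Hba-a2, offset by 3 bases, were identical over all 117 bases compared, while every other pair matched at 32.8% to 36.2% of bases at its best offset. The Hba-a1 window held CCAAT starting 88 bases and CACCC 60 bases before the start. The Hbb-bt window held CCAAT on the gene's strand at 75 bases and on the other strand at 80 and 36 bases, CACCC at 104 and 89 bases, and TATAAA at 28 bases. In the Alas2 window both motifs lay on the other strand, CACCC at 40, 35 and 30 bases and AGATAA at 86 bases. Among 32851 promoter windows of the same length, 21.3% held a CCAAT motif and 31.7% a CACCC motif, while 4.36% held an AGATAA motif and 6.34% a TATAAA motif. These matches are descriptions.

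Across the comparison of cKO with cCT, all 4 tested probes had lower mean signals in cKO, and none passed an adjusted p under 0.05. The median log2 fold change of the 4 was -0.55, against 0.01 over all tested probes, of which 48.2% lay below 0. With limma, 0 of 4 were called in either direction, where 0.67% of tested probes were called higher in cKO and 0.0328% were called lower. Without adjustment, 2 of 4 (Hbb-bt and Slc4a1) had a limma p under 0.05 and a lower signal, against 3.02% of all tested probes. Signals below are log2 values after background correction, scaling of each array to a common mean and addition of 16, and fold changes are on that scale, which understates changes of dim probes.

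Hba-a1, an alpha globin gene, had 1 of the brightest probes of the array, at ranks 37 to 234 of 25697 by raw signal. Its log2 signal was 15.60, 15.04, 15.05 and 15.39 in cCT replicates 1 to 4 and 14.52, 15.60, 14.39 and 14.46 in cKO replicates 1 to 4. Of the cKO mice, 3 lay below every control, but cKO replicate 2 was level with the highest control, so the groups overlapped. The group means were 15.27 ± 0.27 in cCT and 14.74 ± 0.58 in cKO (SD, n = 4). The log2 fold change of -0.53 had a 95% confidence interval of -1.14 to 0.09 (SE 0.27) and an adjusted p of 0.581 in the limma fit over all probes. A two-sided exact permutation test over the 70 arrangements of 4 against 4 gave p = 0.171. Without cKO replicate 2 the change was -0.81, whose adjusted p of 0.133 from limma still missed the threshold. The change shrank to -0.41 without cKO replicate 3, and to -0.41 with array weights. Raw signals ran from 20782 to 56878, under the brightest signal of each array (69774 to 71475), and the standard error over the beads of an array came to 0.03 to 0.07 in log2 units, below the SD between mice. Hba-a1 and Hba-a2 are near-identical copies, and whether this probe also reads Hba-a2 was not tested.

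Hbb-bt, 1 of the 2 adult beta globin genes of C57BL/6 mice, ran in parallel. Its log2 signal was 11.10, 10.73, 10.59 and 10.74 in cCT replicates 1 to 4 and 10.06, 10.70, 9.99 and 10.16 in cKO replicates 1 to 4. Again cKO replicate 2 lay within the control range and the other 3 cKO mice below it. Mean signals of 10.79 ± 0.22 in cCT and 10.23 ± 0.32 in cKO (SD, n = 4) differed by -0.56 (SE 0.18, 95% confidence interval -0.98 to -0.15). The interval lay below 0, but the adjusted p of 0.325 from limma did not pass, and the exact permutation test gave p = 0.0571. Without cKO replicate 2 the change was -0.72 with an adjusted p of 0.140 from limma. It shrank to -0.46 without cCT replicate 1.

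The Hbb-b2 probe was near background and was not tested. Hbb-b2 and Hbb-b1 belong to another form of the beta globin locus than the one C57BL/6 mice carry. The probe was detected on 1 of 8 arrays, cCT replicate 2, with a detection p of 0.0113. Its log2 signal was 5.59, 6.53, 5.40 and 5.13 in cCT replicates 1 to 4 and 5.58, 5.28, 5.02 and 5.12 in cKO replicates 1 to 4. The groups overlapped, and the 1 detected array was the highest of the 8. No fold change is given.

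Alas2, the erythroid form of the first enzyme of heme synthesis, differed between the groups by about as much as its SD within a group. Its log2 signal was 9.09, 9.93, 9.82 and 9.05 in cCT replicates 1 to 4 and 8.82, 9.60, 8.30 and 9.04 in cKO replicates 1 to 4. The highest cKO mouse, replicate 2, exceeded 2 of the controls, and the other 3 cKO mice lay below all of them, replicate 4 only just. Means of 9.47 ± 0.47 in cCT and 8.94 ± 0.54 in cKO (SD, n = 4) gave a change of -0.53 (SE 0.30, 95% confidence interval -1.21 to 0.14). Its adjusted p was 0.613 in limma and its exact permutation p 0.143. The change grew to -0.76 without cKO replicate 2. It shrank to -0.32 without cKO replicate 3 and to -0.34 with array weights.

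Slc4a1, which encodes band 3, the chloride and bicarbonate exchanger of the red cell membrane, had the largest difference of the 4 and the widest spread. Log2 signals of 7.49, 8.21, 9.63 and 7.14 were measured in cCT replicates 1 to 4 and of 6.49, 6.92, 5.76 and 7.10 in cKO replicates 1 to 4. Every cKO mouse lay below every control, though cKO replicate 4 and cCT replicate 4 were nearly level. Among all tested probes, 1.79% had this order without overlap. Means of 8.12 ± 1.10 in cCT and 6.57 ± 0.60 in cKO (SD, n = 4) differed by -1.55 (SE 0.51, 95% confidence interval -2.69 to -0.41). In limma the adjusted p was 0.327. The exact permutation test gave p = 0.0286, the smallest that 4 against 4 allows. The probe was detected on 7 of 8 arrays, with a detection p of 0.0539 in cKO replicate 3, and raw signals of 222.5 to 951 leave its fold change open to the background step: with no background correction it was -0.79 (adjusted p = 0.416 from limma). Without cCT replicate 3, the highest mouse, it was -1.05.

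**Figure D1:**
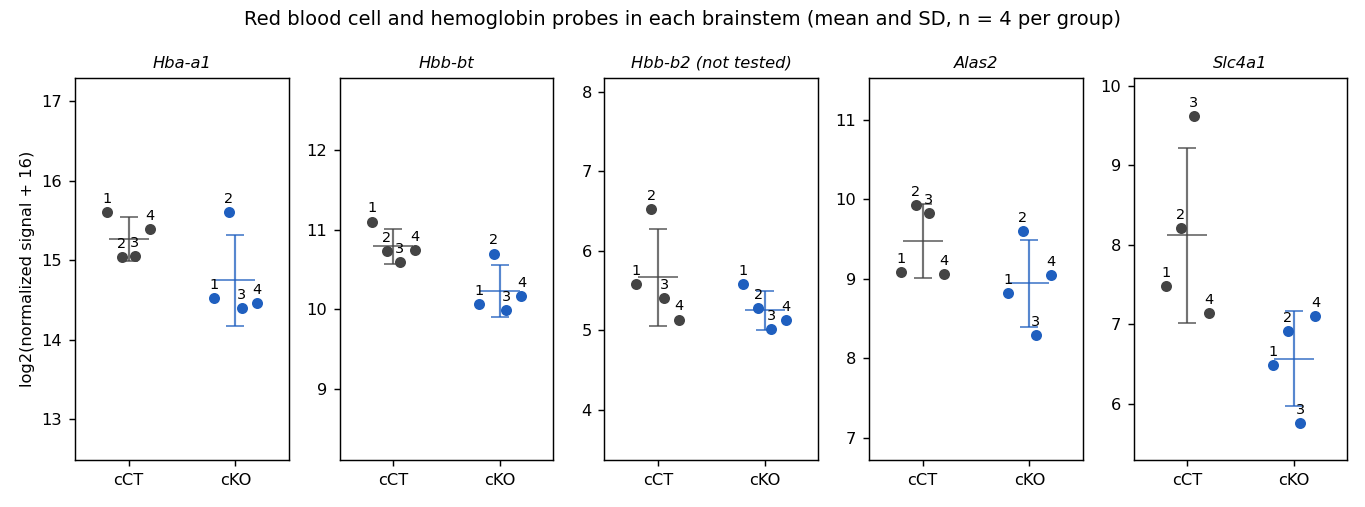
Log2(normalized signal + 16) of each probe in each mouse; all panels span the same number of log2 units, numbers are replicates, bars are the mean and SD (n = 4). Hba-a1 and Hbb-bt were lower in cKO replicates 1, 3 and 4 than in any cCT mouse, with cKO replicate 2 at control level, and only Slc4a1 had no overlap between the groups.

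**Figure D2:**
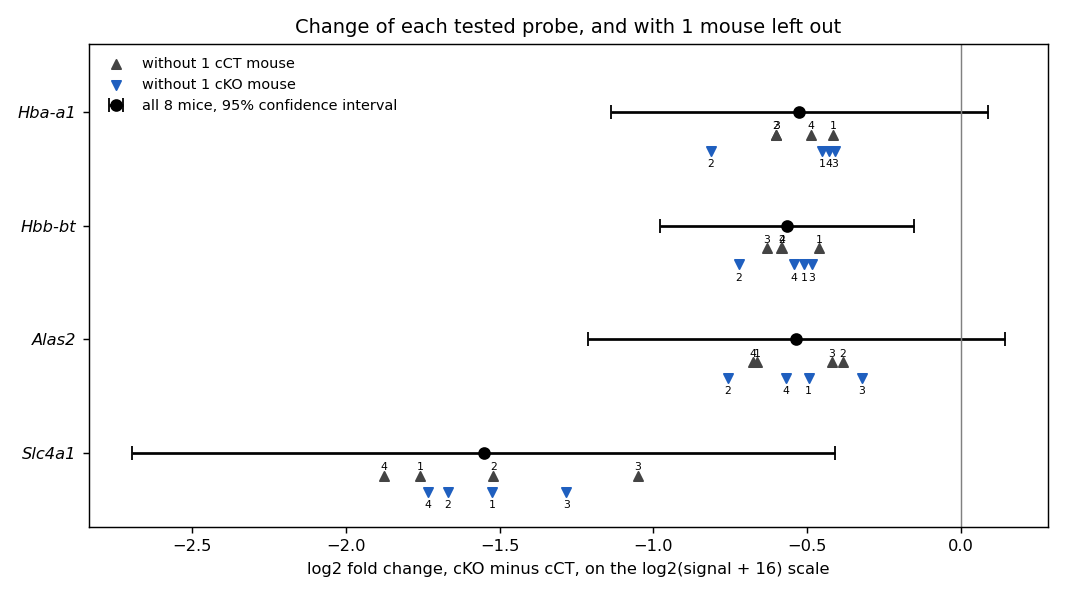
Log2 fold change of the 4 tested probes, cKO minus cCT; black points with bars are all 8 mice with the 95% confidence interval, and triangles are the change with 1 mouse left out, numbered by replicate. Every change stayed below 0, and leaving out cKO replicate 2 gave the largest changes of Hba-a1, Hbb-bt and Alas2.

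Summed over the 5 probes, the normalized signal ran from 36678 to 52575 in cCT mice and from 22877 to 52350 in cKO mice, nearly all of it Hba-a1. As a share of each array's signal this was 0.155%, 0.108%, 0.109% and 0.133% in cCT replicates 1 to 4 and 0.0738%, 0.154%, 0.0673% and 0.0713% in cKO replicates 1 to 4. The share in cKO replicate 2 was close to that of the highest control, and the other 3 cKO mice lay below the lowest control.

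Over all 8 mice, Pearson's r passed adjustment for 2 pairs, the globins with each other and Alas2 with Slc4a1. Hba-a1 and Hbb-bt varied together (Pearson r = 0.93, permutation p = 0.00256 and 0.0153 after Benjamini-Hochberg adjustment over 6 pairs; Spearman rho = 0.79, permutation p = 0.0279, adjusted 0.0838). The correlation was 0.87 without cKO replicates 3 and 4, the mice farthest from the median of Hba-a1, and 0.94 after each group was centred on its mean. Alas2 and Slc4a1 formed the other pair (r = 0.83, permutation p = 0.0114, adjusted 0.0342). Its Spearman rho was 0.83 (permutation p = 0.0154, adjusted 0.0838). Pearson r was 0.76 after centring and 0.75 without cCT replicate 2 and cKO replicate 3, the mice farthest from the median of Alas2. The latter value kept cCT replicate 3, the highest mouse for Slc4a1. Without background correction r was 0.78 and its adjusted p of 0.0510 did not pass. Neither rank correlation passed after adjustment, but both did without background correction (adjusted permutation p = 0.0461) and under quantile normalization (adjusted permutation p = 0.0217). Differences between correlations were not tested.

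Between the globins and the other 2 genes, r over 8 mice ran from 0.34 to 0.59 with adjusted permutation p of 0.247 to 0.430. Within the 4 cCT mice these 4 cross correlations were negative (-0.94 to -0.63) and within the 4 cKO mice positive (0.43 to 0.92), as values over 4 mice with no test. Hba-a1 with Hbb-bt stood at 0.86 within cCT and 0.98 within cKO, and Alas2 with Slc4a1 at 0.79 and 0.84. Within cKO, Alas2 correlated at 0.92 with Hbb-bt and 0.85 with Hba-a1, so it was not closest to Slc4a1 there. Among controls, replicate 1 had the highest globin signals while replicates 2 and 3 had the highest Alas2 and Slc4a1 signals. Among cKO mice, replicate 3 was lowest for all 4 genes, while replicate 2 was highest for Hba-a1, Hbb-bt and Alas2.

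**Figure D3:**
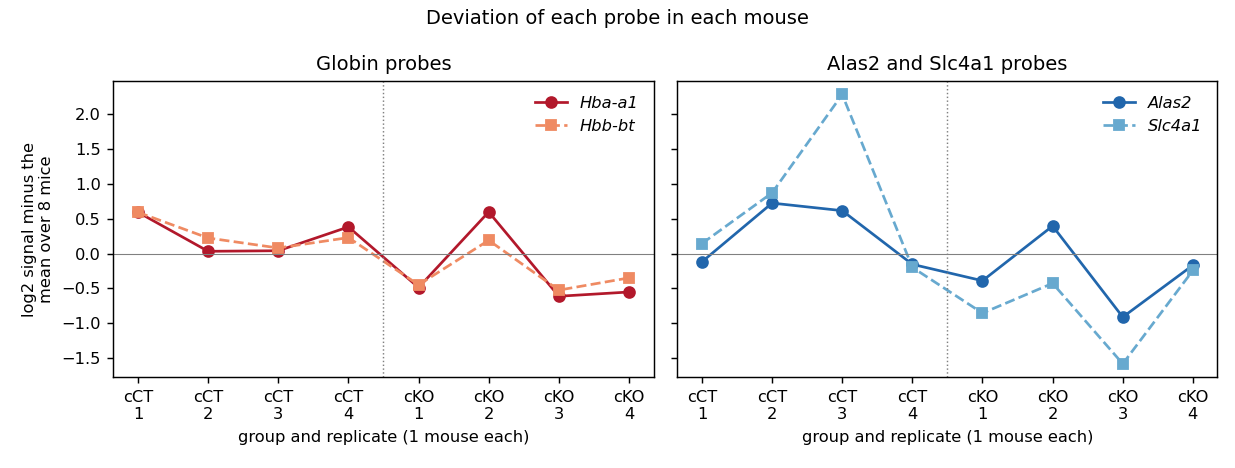
Deviation of each probe's log2 signal from its own mean over the 8 mice, by group and replicate, for Hba-a1 and Hbb-bt (left) and for Alas2 and Slc4a1 (right). The 2 globins followed each other across mice (r = 0.93), as did Alas2 and Slc4a1 (r = 0.83). Among controls both globins peaked in replicate 1, Alas2 in replicate 2 and Slc4a1 in replicate 3. Hba-a1 was level with its control peak in cKO replicate 2.

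The change of 1 gene relative to another was also compared, as the log2 difference of the 2 signals in each mouse. Slc4a1 relative to Alas2 was -1.36 ± 0.78 in cCT and -2.37 ± 0.32 in cKO (SD, n = 4), a shift of -1.02 (exact permutation p = 0.0286, the smallest possible, and 0.171 adjusted over 6 pairs). The shift was -0.63 without cCT replicate 3 and -0.39 with no background correction, and it includes the Slc4a1 signal of cKO replicate 3, which was not above background. The remaining 5 differences moved by -1.03 to 0.03 with exact permutation p of 0.20 to 1. Hbb-bt relative to Hba-a1 moved by -0.04, with a range of 0.61 over all 8 mice.

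Within groups, Slc4a1 was among the most variable probes of the array, with an SD of 0.88 (99.2nd percentile of tested probes). Alas2 had an SD of 0.51 (90.9th percentile), Hba-a1 of 0.45 (86.6th) and Hbb-bt of 0.28 (57.7th), against a median of 0.25.

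The probes most like the globins in pattern were found by Pearson r with the mean of Hba-a1 and Hbb-bt over the 8 arrays, as a description. Of probes with a gene symbol outside all lists, the 10 with the highest r were Babam1 (0.93), Prrx1 (0.92), Ogfod3 (0.90), Dleu7 (0.90), Rap1gds1 (0.90), Cisd1 (0.89), Kcnj16 (0.89), Hcfc1 (0.89), Pgam2 (0.88) and Caskin1 (0.88). A probe with no gene symbol, at rank 9 of all tested probes, was passed over. None of the 10 was called between the groups. Prrx1, Pgam2 and Dleu7 were dim, with mean log2 signals of 6.02, 6.04 and 6.56. Per log2 unit of the globin mean, the 10 changed by 0.19 (Hcfc1) to 0.78 (Prrx1) log2 units. Whether any of the 10 came from blood was not tested. Alas2 (r = 0.56) ranked 757 and Slc4a1 (r = 0.42) 1630 among 15225 tested probes.

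Other genes of red cells and of hemoglobin turnover were read from lists by the brightest tested probe of each gene, and none was called. Of 10 further globins 3 were tested, with a median log2 fold change of -0.12; the probes of Hbb-bh1, Hbb-y, Hba-x and Hbq1a, embryonic or theta-like globins, were detected on no array. Mb (myoglobin, the oxygen store of muscle) was dim, detected on 5 of 8 arrays. It had a log2 fold change of -0.65 (adjusted p = 0.167) with no overlap, an order that 1.79% of tested probes had. Ngb (neuroglobin, a globin of neurons) had one of 0.53 (adjusted p = 0.475), and both values are from limma.

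Of 14 genes of heme synthesis 11 were tested, with a median log2 fold change of 0.03. Cpox, coproporphyrinogen oxidase, was the only 1 past an unadjusted p of 0.05. Its log2 mean was 6.63 ± 0.15 in cCT and 6.16 ± 0.07 in cKO (SD, n = 4 each), with no overlap and an adjusted p of 0.159 from limma. Among all tested probes, 1.79% had this order. The probe was dim, with raw signals of 234 to 299 and detection p of up to 0.0414, and was the only 1 tested of 3 Cpox probes. Ppox, protoporphyrinogen oxidase, the enzyme of the next step, had a log2 fold change of 0.26 (limma adjusted p = 0.645), and Alas1, the form of Alas2 that other tissues use, one of 0.00.

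Of 21 genes of the red cell membrane and cytoskeleton 11 were tested, and 10 of the 11 lay below 0, with a median of -0.12. Car2 (carbonic anhydrase 2, also abundant in oligodendrocytes) had a log2 fold change of -0.51 (adjusted p = 0.459) and Ank1 (ankyrin 1, which anchors band 3 to the spectrin skeleton) one of -0.37 (adjusted p = 0.534). The probes of Epb42, Rhd, Kel, Ermap and Add2 were detected on no array. Several genes of this list, such as Ank1, Sptb and Car2, are also made by brain cells. Signals summed over the 16 listed genes with a probe, tested or not, overlapped between groups (40755 to 50534 in cCT, 30026 to 44693 in cKO).

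Among 11 erythroid regulators 6 were tested (median 0.00), and the probes of Gata1, Nfe2, Gfi1b and Hemgn, which mark red cell precursors, were detected on no array. Klf1, another gene of this list, was detected, but on too few arrays to be tested. Epor, the erythropoietin receptor, had a log2 fold change of -0.46 (limma adjusted p = 0.375) and was dim, detected on 7 of 8 arrays. Lmo2, a partner of GATA1 that endothelium also makes, had one of 0.22 (limma adjusted p = 0.658). Of 20 reticulocyte transcripts 9 were tested, with a median of 0.11 and 0 past an unadjusted p of 0.05. The probes of Trim58, Tspo2, Isg20 and Add2 were detected on no array. Prdx2 and Ube2o had log2 means of 14.68 and 14.05 in cCT, and how much of this list's signal came from blood was not tested. Bnip3l, which clears mitochondria from reticulocytes and is also expressed in brain, stood at -0.28 (limma adjusted p = 0.556), and Hebp1, a heme-binding protein, at 0.25 (limma adjusted p = 0.707).

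Among 13 genes for the clearance of hemoglobin and heme 10 were tested. Hmox1, heme oxygenase 1, which breaks down heme and is also induced by oxidative stress, had log2 signals of 6.61, 7.00, 7.33 and 7.34 in cCT replicates 1 to 4 and 8.02, 8.03, 8.31 and 7.50 in cKO replicates 1 to 4. All 4 cKO mice lay above all controls, an order that 4.01% of all tested probes had, and the mean was 0.90 log2 units higher (SE 0.22), with a limma adjusted p of 0.144 and an exact permutation p of 0.0286. Cd163, the macrophage receptor for haptoglobin-bound hemoglobin, stood at 0.46 (limma adjusted p = 0.611), and the median of the list was 0.07.

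Markers of other blood cells and of vessels were read in the same samples, and their part in the differences above was not tested. Sums of signals here and below cover the brightest probe of every listed gene with a probe, tested or not. Of 12 platelet genes 9 had a probe and 7 were tested (median -0.15), with summed signals of 729 to 1038 in cCT and 546 to 828 in cKO. Ppbp, a platelet chemokine, was detected in 3 cCT mice and in 0 cKO mice. It passed the filter through the cCT arrays alone, so no p-value is given. Its mean in cCT was 1.32-fold that in cKO, with each cKO value raised to the dimmest detected signal of its array. The cCT mean includes replicate 4, which was not above background (detection p of 0.130). Gp9, a subunit of the platelet receptor for von Willebrand factor, stood at -0.44 (limma adjusted p = 0.596) and was detected on 5 of 8 arrays. Of 16 neutrophil genes 15 had a probe and 7 were tested, with a median of -0.41 and sums of 1171 to 2584 in cCT and 1330 to 3260 in cKO. Camp, a neutrophil granule peptide, had a log2 fold change of -0.95 (limma adjusted p = 0.158), but it was detected in only 2 of 4 cKO mice and the nearest cCT and cKO values were 6.28 and 6.27, while Lcn2, which reactive astrocytes also make, had one of 2.37 (limma adjusted p = 0.294).

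Of 14 lymphocyte genes only 2 were tested, Cd3e (-0.10) and Klrb1c (0.07), and the probes of 6 were detected on no array. Of 12 endothelial genes 10 were tested, with a median of 0.13 and 0 past an unadjusted p of 0.05. Sums over the 11 endothelial genes with a probe, 19955 to 23855 in cCT and 20599 to 23496 in cKO, overlapped almost wholly. Pecam1, a junction protein of endothelium, stood at 0.30 (limma adjusted p = 0.674) and Esam, an endothelial adhesion molecule, at 0.32 (limma adjusted p = 0.605). Of the 10 tested endothelial genes 4 had a lower mean in cKO, the lowest being Itm2a at -0.28. Of 8 choroid plexus genes 5 were tested, with a median of 0.23 and sums of 2344 to 10530 in cCT and 3111 to 42169 in cKO. Folr1, a folate receptor, stood at 0.27 (limma adjusted p = 0.818) and Otx2, a homeobox factor, at -0.48 (limma adjusted p = 0.818). Of 12 markers of brainstem neurons and glia 10 were tested, with a median of -0.19 and 6 of the 10 below 0. The probe of Snap25, a neuronal marker of this list, was detected on no array, so lack of detection need not mean lack of the transcript. Gfap, the filament protein of astrocytes, had a log2 fold change of 0.85 (limma adjusted p = 0.297) with overlap between the groups, and Slc6a5, the glycine transporter of inhibitory neurons, one of -0.52 (limma adjusted p = 0.506) with detection in 3 cCT mice and 1 cKO mouse.

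**Figure D4:**
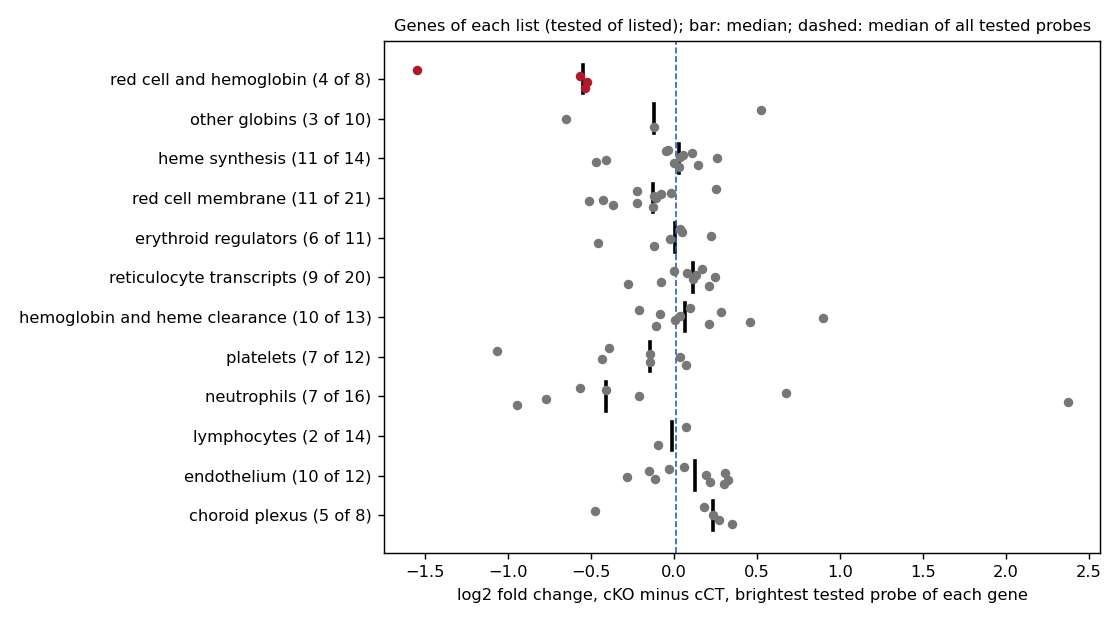
Log2 fold change, cKO minus cCT, of each tested gene by list (points, brightest tested probe), with the list's median (bar) and the median of all tested probes (dashed line, 0.01); labels give tested of listed genes. The 4 red cell and hemoglobin probes, chosen with earlier results known, had a median of -0.55. Medians of the other lists shown ran from -0.41 (neutrophils) to 0.23 (choroid plexus), with platelets at -0.15 and endothelium at 0.13. The lowest platelet point is Ppbp, whose cKO signal was not above background.

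The arrays were of similar quality, with 14293 to 15042 detected probes, 34 to 37 beads per probe by median and correlations of 0.96 to 0.99 within a group. The brainstem markers Slc17a6 (14.71 to 15.05) and Hoxa5 (11.94 to 12.84) were detected on all 8 arrays. Of 4 probes of the targeted gene, Ndufs4, ILMN_1234521 was called lower in cKO (log2 fold change -1.41, adjusted p = 0.0228 from limma) and the other 3 were not called. The array of cKO replicate 4 stood apart in Ttr, a choroid plexus transcript, at 15.27 against 10.86 to 13.21 in the other 7 mice. Its globin signals lay with those of cKO replicates 1 and 3, and without it the change of Hba-a1 was -0.43 and that of Slc4a1 was -1.73.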

How the data were processed

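Brainstem RNA was extracted with the RNeasy kit, labelled with Illumina's TotalPrep kit and hybridised by the authors. Per the file headers, the authors deposited for each probe and array a signal intensity before normalization, a detection p-value, the count of beads and the bead standard error as a signal. They also deposited intensity values after average normalization in GenomeStudio (version not given in the sources used here), used here as an alternative. The unnormalized intensity was background-corrected with limma's normexp model from detection p-values and multiplied by 1 factor per array (0.876 to 1.09) to equalize means. After addition of 16, log2 was taken. Mean raw signals were 1392 to 1707, and precision was limited by 4 arrays a group.

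Probes detected (p under 0.05) on 3 or more arrays were fitted in limma 3.58.1 (R 4.3.3) and p-values were adjusted over the 15225 of them by Benjamini-Hochberg. The fit was tested on simulated data. The custom error model named in the methods was not repeated. Exact permutation tests were two-sided. Of all probes, 23978 had 1 symbol, 0 several and 1719 none, and 0 columns of samples were unmapped. The fold value for Ppbp set the mean of all cCT values, detected or not, against the cKO mean, with each cKO value raised to its array's lowest signal among detected probes. The members and lists were chosen with earlier results of these data known. Named genes were all members, the 2 genes of each list with the smallest p, and the 10 named probes outside the lists most like the globin mean. Alas1 and Ttr were added after their values were seen. Values of Prdx2, Ube2o, Itm2a, Slc17a6, Hoxa5 and Ndufs4 are also given outside this rule. Replicates were separate mice. Results were recomputed with each mouse left out, with replicate number entered as a block, with unadjusted p-values, with array weights, with robust moderation and a variance trend, with all probes kept or a stricter filter (detection p under 0.01), from the normalized table, with an offset of 1 or 50, with the raw background left in, after quantile normalization and with probes of a gene averaged.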

Additional observations from a re-analysis of the deposited data

Results flagged for a closer look

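Of 58 groups of 4 values examined for a mouse far from the other 3, 2 were singled out, where chance alone gives about 1 in 20. Hba-a1 in cKO replicate 2, at a log2 signal of 15.60, lay 1.08 above the next cKO mouse in a group range of 1.21. The same mouse had the highest cKO signal of Hbb-bt and Alas2 but not of Slc4a1. Cd3e, a T cell receptor subunit, was 6.15 in cKO replicate 4, which lay 0.65 below the next cKO mouse in a range of 0.69.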

How the results depend on the processing

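In the 14 alternatives where the estimates could differ, all 56 fold changes of the 4 tested probes were below 0; in the other 5 the estimates are the same by construction and only p could differ. No adjusted p was under 0.05, so 0 of 4 were called in every alternative fit, and 2 of 4 were lower at an unadjusted p under 0.05, Hbb-bt (-0.56) and Slc4a1 (-1.55). Adjusted p over the alternatives ran from 0.133 to 0.944 for Hba-a1, 0.140 to 0.673 for Hbb-bt, 0.392 to 0.981 for Alas2 and 0.133 to 0.675 for Slc4a1. With 1 mouse left out, fold changes ran from -0.81 to -0.41, -0.72 to -0.46, -0.76 to -0.32 and -1.88 to -1.05 in that order, and the median of the 4 from -0.78 to -0.45. Without background correction the correlation of Alas2 with Slc4a1 was 0.78 (adjusted permutation p = 0.0510, over the threshold); for Pearson's r, the other 5 pairs kept their call there and all 6 did under quantile normalization, while both rank correlations passed in each (0.0461 and 0.0217). The shift of Slc4a1 relative to Alas2, recomputed after the data had been seen, was -0.39 without background correction, -1.01 under quantile normalization and -1.20 to -0.63 with 1 mouse left out. With the replicate number as a block, adjusted p was 0.758 for Hba-a1, 0.564 for Hbb-bt, 0.719 for Alas2 and 0.598 for Slc4a1, and calls over all probes went from 107 to 11. The sample titles name no link between mice of the same number beyond that number. Deviations of same-numbered mice correlated at -0.26 to -0.19, and none of the 8 arrays had its best partner under its own number. Whether such mice shared a litter or handling was not tested. Over all probes, calls were 102 higher and 5 lower, 213 and 27 with array weights and 234 and 123 without cKO replicate 4; leaving out any other mouse gave 30 to 64 higher and 0 to 2 lower. The cause was not tested. Signals near background limit Slc4a1 and Hbb-b2, and 4 mice a group limit all 4 tests.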
